A study of Mus musculus with 14 samples.

Results

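Smooth muscle contractile genes mark the conversion of a fibroblast into a myofibroblast, and 10 of them were followed here through 4 weeks of infarct healing in the mouse heart. The genes, found in the table by their symbols, were Acta2, Tpm1, Tpm2, Lmod1, Tagln, Cnn1, Smtn, Myh11, Myl9 and Mylk, and all 10 were among the 19505 genes tested. Each of the 14 Clariom S Mouse arrays held RNA of GFP-positive cardiac fibroblasts of the Tcf21 lineage, isolated by FACS. The groups were uninjured left ventricle (3 arrays) and infarct area at 3 d (3 arrays), 7 d (3 arrays), 2 wk (2 arrays) and 4 wk (3 arrays) post-MI. All groups, the uninjured one included, came from tamoxifen-treated adult mice with a C57BL/6 background, a MerCreMer cassette in the Tcf21 locus and a Cre-dependent GFP reporter in the Rosa26 locus. The GFP label therefore marks cells in which Tcf21 had been active during tamoxifen and stays with them whatever they later express. The uninjured group had no sham surgery and came from another region than the infarct groups, so injury and region cannot be told apart. The labels call the arrays of a group biological replicates and do not say whether each was 1 animal or a pool, so the p-values measure the spread between these arrays.

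Myofibroblasts form stress fibers in which actin filaments slide over myosin, as in smooth muscle cells, and their pull holds a wound together until its collagen has matured. Contraction starts when calcium and calmodulin switch on a kinase that phosphorylates the regulatory light chain of myosin, while tropomyosin, calponin and transgelin lie along the actin filament and set its stability and its access to myosin. Most of these genes are known targets of serum response factor (SRF), which binds a short DNA element called the CArG box together with the coactivator myocardin in smooth muscle or with its relatives MRTF-A and MRTF-B in other cells.

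Values are log2 signals of the deposited gene-level table, so a difference of 1 is a doubling of signal. Background was set at 5.89, below which lay 95% of 1410 receptor genes of the olfactory and vomeronasal families, and 10751 to 11314 genes per array lay above it. The array medians ranged from 6.34 to 6.46. All 12 measured fibroblast markers, the collagen genes Col1a1, Col1a2 and Col3a1 included, were above background on all arrays, and Tcf21, whose locus drives the label, was there too but was 2.35 ± 0.29 lower at 3 d and 1.99 ± 0.29 lower at 7 d than in uninjured cells (differences of -2.35 and -1.99, limma adjusted p = 9.6e-05 and 5.2e-04). The arrays numbered 1 of the 5 groups stood apart from the other 9, because 21 rows of the table held 1 and the same value in all 5 of them and no row did so in the other 9. The called differences of the members are therefore also given within these 2 sets of arrays and with the set as a block, an alternative added after seeing the data. Uninjured replicate 1 had lower levels than uninjured replicates 2 and 3 for all members except Myh11 and Lmod1, and for endothelial and cardiomyocyte markers, whose summed signal was 13.79 and 11.71 there against 15.47 to 15.52 and 13.97 to 14.17 in the other uninjured arrays on the log2 scale. Counts that rest on it are given without it. The 3 measured Y-linked genes all lay below background on 7 d replicate 2, both 2 wk arrays and 4 wk replicate 1, and a fit with this split as a block is among the alternatives. Eif2s3y was below background in every group, so the split rests on Uty and Kdm5d. Both 2 wk arrays and no uninjured or 3 d array were on the low side. Between 2 wk cells and uninjured or 3 d cells the split therefore coincides with time. The labels do not give the sex of the mice.

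At 3 days post-MI 4 of the 10 members rose over uninjured fibroblasts (Acta2, Tagln, Tpm1 and Tpm2), where 6.74% of all genes were called higher. At 7 days 6 members rose (the same 4 with Mylk and Myl9), where 4.62% of all genes were called higher. By 2 weeks no member passed the test against uninjured cells with limma at an adjusted p under 0.05, while 2 did at an unadjusted p under 0.05 and none with the Tukey test of the study's methods, and 2.49% of all genes were called, 1.31% higher. At 4 weeks 1 member, Tagln, rose, where 1.91% of all genes were called, 0.995% higher. None of the 10 fell (limma) at any of the 4 times, nor at an unadjusted p under 0.05, where 5.82% of all genes were called lower at 3 d, 3.49% at 7 d, 1.18% at 2 wk and 0.918% at 4 wk. The members' median log2 difference from uninjured cells was 1.08 (3 d), 1.52 (7 d), 0.20 (2 wk) and 0.14 (4 wk), against -0.02, 0.02, -0.02 and 0.01 over all genes. The 4 infarct groups share the uninjured arrays, so these comparisons are not independent of each other. Without uninjured replicate 1 the counts were 4, 4, 0 and 0 at the 4 times, where 13.6%, 7.32%, 4.14% and 1.85% of all genes were called in either direction. By limma's F test over the 5 groups 7 members differed (15.4% of all genes did), all except Myh11, Lmod1 and Smtn. Since the cells were sorted in bulk, a larger share of contractile cells and more RNA per cell cannot be told apart.

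**Figure D1:**
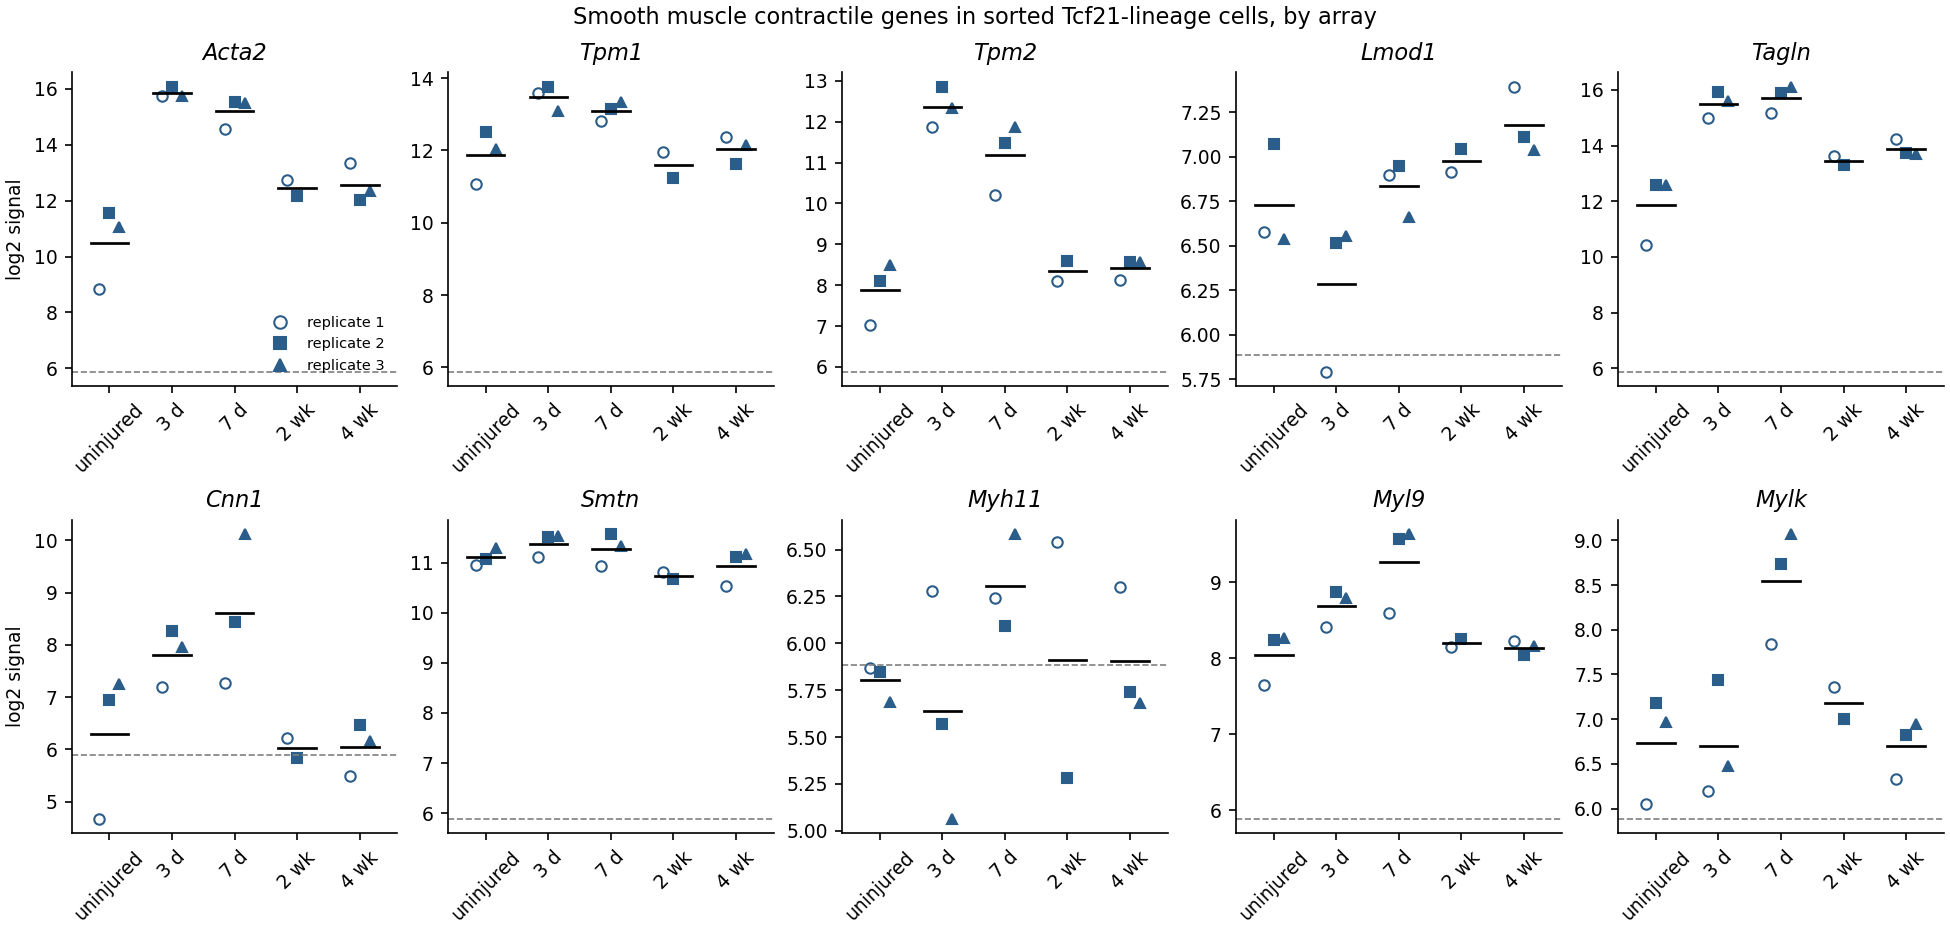
Log2 signal of the 10 members (1 panel each, with its own vertical scale) on each of the 14 arrays by time after infarction. Points are arrays, with open circles for replicate 1, bars are group means, and the dashed line is the background level of 5.89. Acta2, Tagln and Tpm2 lie high at 3 d and 7 d, Mylk at 7 d alone, and Myh11 stays near background.

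Acta2 encodes smooth muscle alpha actin (αSMA), the standard myofibroblast marker. Its log2 signal was 8.82, 11.54 and 11.08 in uninjured fibroblasts, 15.76, 16.08 and 15.76 at 3 d, 14.56, 15.54 and 15.51 at 7 d, 12.73 and 12.18 at 2 wk, and 13.35, 12.01 and 12.33 at 4 wk. All infarct arrays were above all uninjured arrays, and the 2 wk and 4 wk arrays lay between the uninjured and the early groups without overlapping either. Every array of a time lay above every uninjured array for 5, 8, 2 and 2 members at 3 d, 7 d, 2 wk and 4 wk. Over all genes this held for 12.4%, 11%, 11.4% and 6.48%. The 3 d cells exceeded uninjured cells by 5.38 ± 0.57 on the log2 scale (SE, 41.8-fold, limma adjusted p = 2.9e-05), and the 7 d cells by 4.72 ± 0.57 (26.4-fold, adjusted p = 1.2e-04). Leaving out uninjured replicate 1 reduced these differences to 4.56 and 3.89, and both stayed called without any single array. From 3 to 7 days the level differed by -0.66 ± 0.57 (7 d minus 3 d, adjusted p = 0.665). The excess at 2 wk (1.98 ± 0.63, adjusted p = 0.157) and at 4 wk (2.08 ± 0.57, adjusted p = 0.0976) missed the threshold, and fell to 1.15 and 1.26 without uninjured replicate 1. The 4 wk excess was called without uninjured replicate 2 (adjusted p = 0.0477) and with the array set as a block (adjusted p = 0.0482).

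The RefSeq window upstream of the Acta2 start, shown because the CArG boxes there are the element that the SRF pathway is known to read, held 2 CArG-like boxes (a CArG box with 1 C or G inside its run of A and T) at 84 and 34 bases before the start and 1 CATTCC motif, the core of the MCAT element read by TEAD factors, on the other strand at 146 bases. The stretch lies at chr19:34255388-34255533 of GRCm38.p6, minus strand, 160 to 15 bases before the start, and capitals mark the matches.
Acta2: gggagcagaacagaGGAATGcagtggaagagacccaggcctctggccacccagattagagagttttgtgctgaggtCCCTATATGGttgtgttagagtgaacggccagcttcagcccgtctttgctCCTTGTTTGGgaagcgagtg
For each member only the first listed window was read, so any further starts of the same gene were not looked at. The shares given below are over all distinct windows. The Myl9 window was the only one read among the 8 members with a RefSeq window (Acta2, Tpm1, Tpm2, Lmod1, Cnn1, Smtn, Myl9 and Mylk) to hold a CArG box without such a change, at 161 bases before the start, followed by a CArG-like box at 99 bases. Its stretch lies at chr2:156775289-156775389 of GRCm38.p6, plus strand, 175 to 75 bases before the start.
Myl9: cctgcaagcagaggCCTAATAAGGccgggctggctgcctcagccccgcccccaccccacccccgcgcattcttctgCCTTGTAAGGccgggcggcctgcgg
Over all 32817 RefSeq windows of the same length (250 bases before to 50 after a start), 1.63% held a CArG box, 8.5% a CArG-like box and 14.7% CATTCC on either strand. CArG-like boxes were found in Acta2 and Myl9, and CATTCC in Acta2, Tpm1, Lmod1, Smtn and Mylk, so CATTCC stood in windows of genes that rose as well as of Lmod1 and Smtn, which did not pass. A match describes the letters in this window and is not a measurement of binding.

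The tropomyosins Tpm1 and Tpm2 encode coiled coils that run along the actin filament. Tpm2 measured 7.03, 8.11 and 8.49 in uninjured cells, 11.87, 12.86 and 12.33 at 3 d, 10.21, 11.48 and 11.86 at 7 d, 8.11 and 8.60 at 2 wk, and 8.13, 8.56 and 8.57 at 4 wk. Its 3 d and 7 d arrays were above all others, and its 2 wk and 4 wk arrays overlapped the uninjured ones. Tpm2 rose by 4.48 ± 0.43 at 3 d (22.3-fold, limma adjusted p = 1.5e-05) and by 3.31 ± 0.43 at 7 d (9.91-fold, adjusted p = 2.5e-04), and both calls held without any single array. At 2 and 4 weeks it differed from uninjured cells by 0.48 ± 0.49 and 0.54 ± 0.43 (adjusted p = 0.820 and 0.936). All 7 d arrays were below all 3 d arrays (-1.17 ± 0.43, adjusted p = 0.150), a difference called with the array set as a block (adjusted p = 0.0058).

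Tpm1 measured 11.08, 12.52 and 12.04 in uninjured cells, 13.59, 13.77 and 13.09 at 3 d, 12.80, 13.15 and 13.35 at 7 d, 11.96 and 11.25 at 2 wk, and 12.36, 11.62 and 12.16 at 4 wk. Its early arrays were above all uninjured arrays and its later ones were among them. Tpm1 rose by 1.61 ± 0.35 at 3 d (3.04-fold, adjusted p = 0.0070), without exception when single arrays were left out. The 7 d rise of 1.22 ± 0.35 (2.33-fold, adjusted p = 0.0479) kept its call only without uninjured replicate 2 or 4 wk replicate 1. It missed the threshold without any 1 of the other 12 arrays (adjusted p up to 0.178) and in the set without the arrays numbered 1 (adjusted p = 0.0635).

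Tagln encodes transgelin (SM22 alpha), an actin-binding protein that is an early marker of smooth muscle differentiation. Its values were 10.41, 12.57 and 12.57 in uninjured cells, 14.99, 15.92 and 15.59 at 3 d, 15.17, 15.87 and 16.12 at 7 d, 13.62 and 13.29 at 2 wk, and 14.24, 13.73 and 13.71 at 4 wk. As for Acta2, where the shares over all genes are given, the late groups lay above all uninjured arrays and below all early ones. Tagln rose by 3.65 ± 0.48 at 3 d (12.6-fold, limma adjusted p = 1.8e-04) and by 3.87 ± 0.48 at 7 d (14.6-fold, adjusted p = 1.7e-04), with both calls kept without any single array. At 2 weeks it stood 1.60 ± 0.54 above uninjured cells (adjusted p = 0.185), a difference called with the array set as a block (adjusted p = 0.0496). At 4 weeks the excess of 2.04 ± 0.48 (4.11-fold, adjusted p = 0.0483) was the only late call among the members. It held without uninjured replicate 2 or 3 or 7 d replicate 1 and was lost without any 1 of the other 11 arrays (adjusted p up to 0.168), with a difference of 1.32 without uninjured replicate 1.

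Cnn1 encodes calponin 1, which binds actin and slows the myosin ATPase. Its values were 4.67, 6.94 and 7.26 in uninjured cells, 7.19, 8.27 and 7.96 at 3 d, 7.28, 8.45 and 10.13 at 7 d, 6.22 and 5.83 at 2 wk, and 5.48, 6.47 and 6.17 at 4 wk. Uninjured replicate 1 was below background, as were 2 wk replicate 2 and 4 wk replicate 1, and 7 d replicate 3 was the highest array. The differences from uninjured cells, 1.52 ± 0.69 at 3 d and 2.33 ± 0.69 at 7 d, missed the threshold (limma adjusted p = 0.208 and 0.0578). The 7 d difference was called with the array set as a block (adjusted p = 0.0051), without uninjured replicate 3 (adjusted p = 0.0427) and without 7 d replicate 1 (adjusted p = 0.0148), and was 1.52 without uninjured replicate 1.

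Myl9 and Mylk belong to the myosin switch. Mylk encodes myosin light chain kinase, and its values were 6.05, 7.18 and 6.97 in uninjured cells, 6.19, 7.44 and 6.48 at 3 d, 7.84, 8.73 and 9.07 at 7 d, 7.36 and 7.00 at 2 wk, and 6.33, 6.82 and 6.95 at 4 wk. The 7 d arrays were above all other arrays, and the 3 d arrays were mixed with the uninjured ones (means 6.70 ± 0.65 at 3 d and 6.73 ± 0.60 in uninjured cells, SD, n = 3 each). Mylk rose at 7 d by 1.82 ± 0.39 over uninjured cells (3.52-fold, limma adjusted p = 0.0096) and by 1.85 ± 0.39 over 3 d cells (3.60-fold, adjusted p = 0.0118). It was the only member called higher at 7 d than at 3 d, where 6.49% of all genes were called, 3.35% higher and 3.14% lower. No member was called lower by limma there, and 1 was at an unadjusted p under 0.05. Both calls were lost without 7 d replicate 3 (1.55 and 1.58, adjusted p = 0.0555 and 0.0675), and the one against 3 d cells also without 3 d replicate 1 (1.59, adjusted p = 0.0590).

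Myl9 encodes the smooth muscle regulatory light chain that this kinase phosphorylates. It measured 7.64, 8.24 and 8.26 in uninjured cells, 8.41, 8.87 and 8.79 at 3 d, 8.59, 9.56 and 9.64 at 7 d, 8.14 and 8.25 at 2 wk, and 8.22, 8.05 and 8.16 at 4 wk. Every 3 d and 7 d array was above every uninjured array, and the late arrays were among the uninjured ones. The difference was 0.64 ± 0.28 at 3 d (adjusted p = 0.173) and 1.22 ± 0.28 at 7 d (2.32-fold, limma adjusted p = 0.0129). The 7 d call was lost without uninjured replicate 1, 7 d replicate 2 or 7 d replicate 3 (adjusted p = 0.0525, 0.0648 and 0.0707). The 3 d difference was called with the array set as a block (adjusted p = 0.0448).

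The remaining 3 members, Myh11, Lmod1 and Smtn, did not pass any comparison with uninjured cells. Nor did they pass between 7 d and 3 d, 2 wk and 7 d, 4 wk and 2 wk, or 4 wk and 7 d. Myh11 encodes the smooth muscle myosin heavy chain and is held to be the most specific marker of mature smooth muscle. Its values, 5.87, 5.85 and 5.69 in uninjured cells, 6.28, 5.57 and 5.06 at 3 d, 6.24, 6.09 and 6.58 at 7 d, 6.54 and 5.28 at 2 wk, and 6.30, 5.74 and 5.68 at 4 wk, lay around background throughout. Only the 7 d arrays were all above background. The difference between 7 d and 3 d cells was 0.67 ± 0.34 (limma adjusted p = 0.347), and 1.02 without the arrays numbered 1, where it was called (adjusted p = 0.0300).

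Lmod1 encodes leiomodin 1, which nucleates actin filaments in smooth muscle. It measured 6.58, 7.07 and 6.54 in uninjured cells, 5.79, 6.51 and 6.55 at 3 d, 6.90, 6.95 and 6.66 at 7 d, 6.91 and 7.04 at 2 wk, and 7.39, 7.11 and 7.04 at 4 wk. Its 3 d mean was the lowest of the 5 groups (-0.44 ± 0.24 against uninjured cells, adjusted p = 0.307) and its 4 wk mean the highest. In a direct test the 4 wk cells exceeded the 3 d cells in Lmod1 by 0.89 ± 0.24 (limma adjusted p = 0.0226). Smtn encodes smoothelin, a cytoskeletal protein of contractile smooth muscle, and all its values lay between 10.53 and 11.58. It differed by 0.28 ± 0.23 between 3 d and uninjured cells (adjusted p = 0.600) and by -0.54 ± 0.26 between 2 wk and 7 d cells (adjusted p = 0.389). Across the 14 arrays, which share their sorts and groups, Lmod1 had Pearson correlations of -0.53 with Tpm2 and -0.46 with Tpm1, while Acta2 correlated at 0.97 with Tagln, 0.93 with Tpm2 and 0.44 with Mylk.

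**Figure D2:**
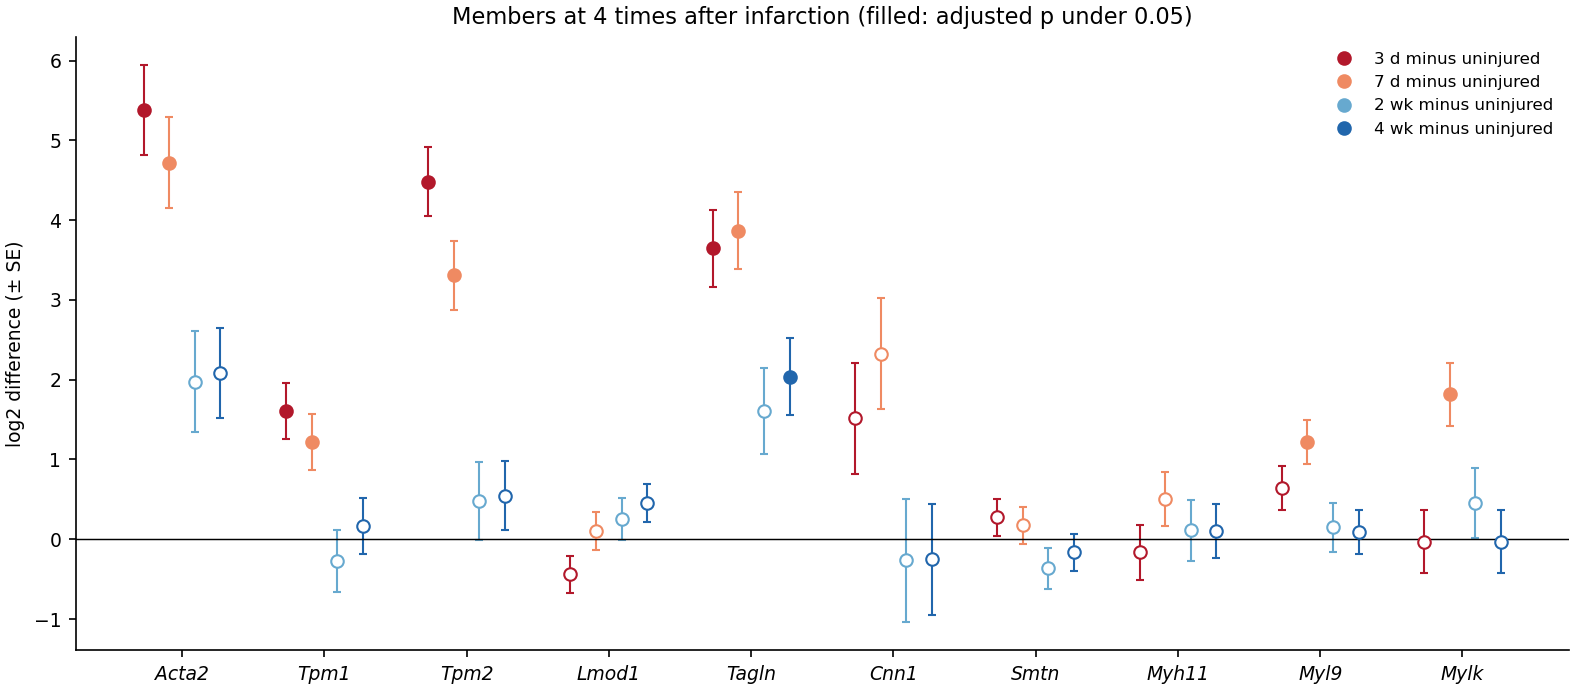
Log2 difference of each member from uninjured cells at 3 d, 7 d, 2 wk and 4 wk (points, with SE bars from limma), filled where the adjusted p was under 0.05. The differences of Acta2, Tagln and Tpm2 exceed 3 at 3 d and 7 d, Mylk and Myl9 are filled at 7 d only, and Lmod1, Smtn and Myh11 stay within 1 of 0.

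Calls below 7 d cells came at 2 and 4 weeks, while Tpm2 already lay lower at 7 d than at 3 d (-1.17 ± 0.43, limma adjusted p = 0.150). At 2 weeks 2 members had fallen below 7 d cells, Acta2 and Tpm2, where 1.19% of all genes were called lower (none of the 10 was called higher, as 0.4% of all genes were). At 4 weeks 5 members had fallen below 7 d cells, Acta2, Tagln, Mylk, Tpm2 and Myl9, where 4.35% of all genes were called, 2.78% lower (none was called higher, as 1.56% of all genes were). The median difference of the members was -1.43 at 2 wk and -1.48 at 4 wk against -0.04 and -0.01 over all genes. Both comparisons share the 7 d arrays. Between 4 and 2 weeks no member was called with limma, at an adjusted or an unadjusted p under 0.05, or by the Tukey test, and 0.0256% of all genes were called, 0.0103% higher and 0.0154% lower. Without uninjured replicate 1, 5 members were called lower at 2 wk than at 7 d, where 2.32% of all genes were called in either direction, and 6 at 4 wk, where 4.97% were. All 2 wk arrays lay below all 7 d arrays for 8 members, as for 16.8% of all genes, and all 4 wk arrays did so for 7, as for 9.94% of all genes.

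Acta2 fell by 2.74 ± 0.63 on the log2 scale at 2 wk (6.70-fold lower than at 7 d, limma adjusted p = 0.0487) and by 2.64 ± 0.57 at 4 wk (6.22-fold, adjusted p = 0.0162). The 2 wk call was lost without any 1 of uninjured replicate 3, the 3 d arrays, 7 d replicates 2 and 3, the 2 wk arrays and 4 wk replicates 2 and 3 (adjusted p up to 0.371, the difference between -3.07 and -2.47 over all 14 omissions). The 4 wk call was lost without 7 d replicate 2 or 3 or 4 wk replicate 2 or 3 (adjusted p up to 0.0849). Tpm2 fell by 2.83 ± 0.49 at 2 wk (7.10-fold, adjusted p = 0.0097), a call that needed both 2 wk arrays (adjusted p = 0.139 and 0.0846 without replicate 1 and replicate 2). At 4 weeks Tpm2 fell by 2.76 ± 0.43 (6.79-fold, adjusted p = 0.0022), and here no single array decided the call.

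Tagln fell less, by 1.83 ± 0.48 at 4 wk (3.55-fold, limma adjusted p = 0.0492), and was called there only when the array left out was an uninjured one or 7 d replicate 1, with an adjusted p of up to 0.190 without any 1 of the other 10. Its 2 wk difference of -2.27 ± 0.54 (adjusted p = 0.0542) was called without uninjured replicate 1 (adjusted p = 0.0039) and without 7 d replicate 1 (adjusted p = 0.0373). Mylk fell by 1.85 ± 0.39 at 4 wk (3.60-fold, adjusted p = 0.0152), lost without 7 d replicate 2, 7 d replicate 3 or 4 wk replicate 1 (adjusted p up to 0.0793), and differed by -1.37 ± 0.44 at 2 wk (adjusted p = 0.152). Myl9 fell by 1.12 ± 0.28 at 4 wk (2.18-fold, adjusted p = 0.0340), lost without 7 d replicate 2 or 3 or any 2 wk or 4 wk array (adjusted p up to 0.158), and differed by -1.07 ± 0.31 at 2 wk (adjusted p = 0.109).

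Cnn1 and Tpm1 differed from 7 d cells in the same direction and missed the threshold. For Cnn1 the difference was -2.59 ± 0.78 at 2 wk (limma adjusted p = 0.122) and -2.58 ± 0.69 at 4 wk (adjusted p = 0.0532). Both were called without uninjured replicate 1 (adjusted p = 0.0476 and 0.0158) and without 7 d replicate 1 (adjusted p = 0.0373 and 0.0170). For Tpm1 it was -1.49 ± 0.39 at 2 wk (adjusted p = 0.0773, and 0.0274 without uninjured replicate 1) and -1.05 ± 0.35 at 4 wk (adjusted p = 0.132). Against 3 d cells, where its mean was highest, Tpm1 was called lower at 2 wk (-1.88 ± 0.39, limma adjusted p = 0.0079). At 4 wk it was called lower there too (-1.44 ± 0.35, adjusted p = 0.0143). Acta2, Tagln and Tpm2 were also called lower than at 3 d at both times, and Cnn1, Mylk and Myl9 at neither.

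Within the 2 sets of arrays the 19 called differences of the members had the same sign among the arrays numbered 1 and among the other arrays. All 19 were also called with the set as a block. They had been chosen because the fit over both sets together called them, so the same sign and the same calls were likely from the start. The split into sets was also made after seeing the data. These counts are therefore not an independent check of the direction. The size differed between the sets. For Acta2 the 3 d array numbered 1 exceeded the uninjured one by 6.93, against 4.61 among the other arrays, and the 4 wk array numbered 1 was 1.21 below the 7 d one, against 3.35 among the others. The 4 wk excess of Acta2 over uninjured cells was 4.52 among the arrays numbered 1 and 0.86 among the others (adjusted p = 0.116), and that of Tagln was 3.83 and 1.15 (adjusted p = 0.0220). For Mylk at 7 d the differences from uninjured cells were 1.80 and 1.83. With the set as a block 7 members were called lower at 2 wk than at 7 d, where 5.37% of all genes were called in either direction, and without the arrays numbered 1 it was also 7, where 4.89% were.

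**Figure D3:**
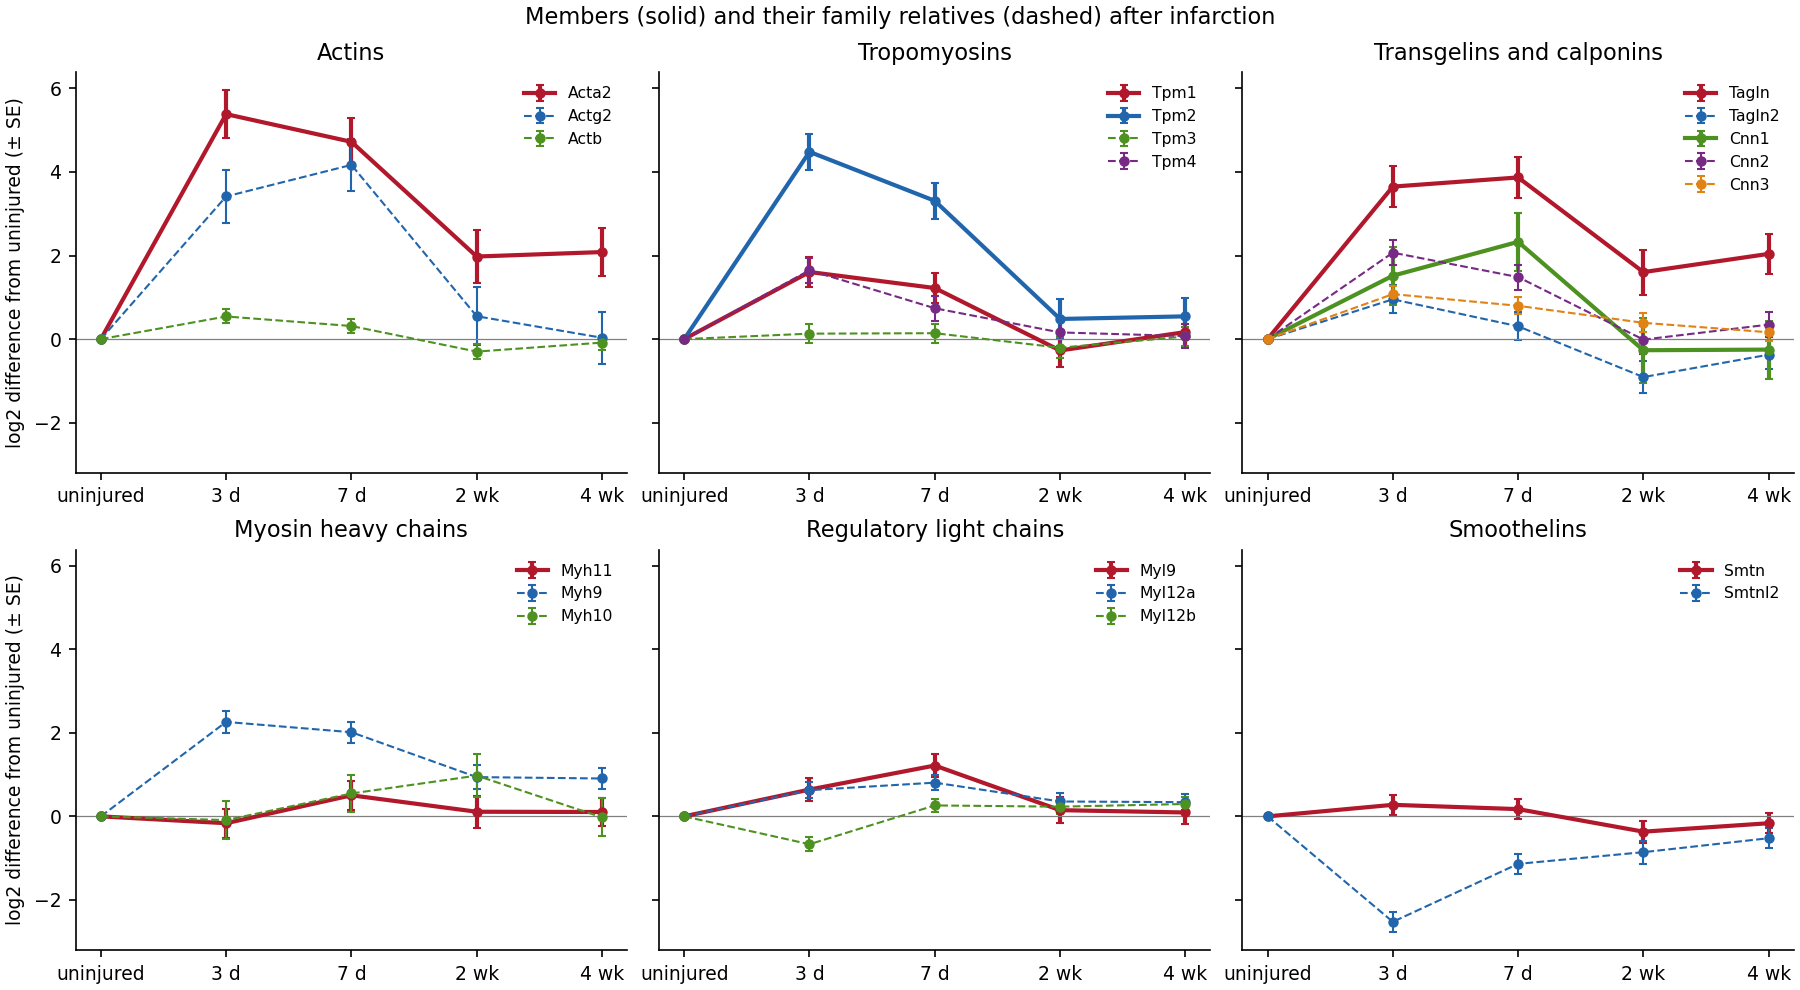
Log2 difference from uninjured cells (means with SE bars from limma, uninjured set to 0) for members (solid lines) and relatives of the same gene family (dashed lines). Actg2 rises beside Acta2, Tpm2 rises further than the other tropomyosins, and Myh9 rises where Myh11 does not pass the test.

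Relatives of the members from the same gene families rose in part. Of 23 measured paralogues 7 rose and 2 fell at 3 d, and 5 rose and 1 fell at 7 d. Over all genes 6.74% were called higher and 5.82% lower at 3 d, and 4.62% and 3.49% at 7 d. Of the paralogues 8 were below background in every group, among them the skeletal actin gene Acta1 and the transgelin gene Tagln3. Actg2, the gamma actin of visceral smooth muscle, measured 3.42, 5.42 and 4.55 in uninjured cells, 8.25, 8.12 and 7.27 at 3 d, 7.09, 8.78 and 10.03 at 7 d, 4.73 and 5.30 at 2 wk, and 4.395, 4.11 and 4.995 at 4 wk. It was below background on every uninjured and late array and above it on every early one, with differences of 3.41 ± 0.63 at 3 d and 4.17 ± 0.63 at 7 d from uninjured cells (limma adjusted p = 0.0021 and 7.3e-04) and of -4.14 ± 0.63 at 4 wk from 7 d cells (adjusted p = 0.0017). Its 2 wk difference from 7 d cells, -3.62 ± 0.70 (adjusted p = 0.0194), was not called without 7 d replicate 2 or 3 or either 2 wk array (adjusted p up to 0.186). Since its uninjured level is not above background, these sizes are not measured on both sides.

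Among the cytoplasmic relatives, Myh9 (the heavy chain of nonmuscle myosin IIA) rose by 2.26 ± 0.26 at 3 d and 2.01 ± 0.26 at 7 d (limma adjusted p = 5.1e-05 and 1.9e-04), while Myh10 (nonmuscle myosin IIB) was called in no comparison. The calponin gene Cnn2 rose by 2.07 ± 0.30 and 1.48 ± 0.30 (adjusted p = 3.8e-04 and 0.0062), Cnn3 by 1.08 ± 0.21 at 3 d (adjusted p = 0.0029) and Tpm4, a cytoplasmic tropomyosin, by 1.65 ± 0.30 at 3 d (adjusted p = 0.0018). Myl12b, a nonmuscle regulatory light chain, was 0.93 ± 0.16 higher at 7 d than at 3 d (adjusted p = 0.0042). Smtnl2, a smoothelin-like gene, fell by 2.52 ± 0.24 at 3 d (adjusted p = 1.4e-05), was 1.39 ± 0.24 higher at 7 d than at 3 d (adjusted p = 0.0040), and differed by -1.14 ± 0.24 from uninjured cells at 7 d (adjusted p = 0.0089, and 0.0505 without 7 d replicate 3). Myl12b had differed by -0.67 ± 0.16 at 3 d from uninjured cells (adjusted p = 0.0147, lost without uninjured replicate 3 or 3 d replicate 1, up to 0.0656). Actb, the ubiquitous beta actin, rose by 0.54 ± 0.17 at 3 d (adjusted p = 0.0490) and Myl12a by 0.63 ± 0.19 (adjusted p = 0.0415). The 3 d calls were lost without any 1 of 13 arrays for Actb (all except 7 d replicate 2, adjusted p up to 0.141) and without uninjured replicate 2 or 3, any 3 d or 2 wk array, 7 d replicate 3 or 4 wk replicate 3 for Myl12a (adjusted p up to 0.130). Later calls of paralogues rested on single arrays too. Cnn2 differed by -1.496 ± 0.336 at 2 wk and -1.14 ± 0.30 at 4 wk from 7 d cells (adjusted p = 0.0418 and 0.0490, up to 0.270 and 0.211 without single arrays, the calls being lost for 9 and 11 of the 14), and Myh9 by -1.11 ± 0.26 at 4 wk (adjusted p = 0.0243, lost without 7 d replicate 1 or 2 or 4 wk replicate 2 or 3, up to 0.123).

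Of 23 further measured smooth muscle genes, Actg2 included, 3 rose and 4 fell at 3 d, and 2 rose and 3 fell at 7 d. The shares over all genes were 6.74% higher and 5.82% lower at 3 d, and 4.62% and 3.49% at 7 d. Cacna1c, the pore subunit of the L-type calcium channel, rose by 1.26 ± 0.23 at 3 d and 1.99 ± 0.23 at 7 d (limma adjusted p = 0.0017 and 7.3e-05). Ppp1r14a, which encodes the myosin phosphatase inhibitor CPI-17, measured 10.60, 11.98 and 12.24 in uninjured cells, 8.04, 9.16 and 8.20 at 3 d, 8.54, 9.22 and 9.38 at 7 d, 8.24 and 7.84 at 2 wk, and 8.43, 9.83 and 10.14 at 4 wk. All its infarct arrays were below all uninjured arrays. It differed from uninjured cells by -3.14 ± 0.49 at 3 d and -2.56 ± 0.49 at 7 d (adjusted p = 6.7e-04 and 0.0044), by -3.57 ± 0.55 at 2 wk (adjusted p = 0.0025, and 0.0566 without 2 wk replicate 2) and by -2.14 ± 0.49 at 4 wk (adjusted p = 0.0416). The 4 wk call held only without uninjured replicate 1, 3 d replicate 2, 7 d replicate 1 or 4 wk replicate 3, with an adjusted p of up to 0.193 without any 1 of the other 10 arrays. Itga8, an integrin subunit of smooth muscle and of fibroblasts, differed by -2.67 ± 0.32 at 3 d and -2.20 ± 0.32 at 7 d (adjusted p = 9.2e-05 and 6.0e-04), Synm, an intermediate filament protein, by -1.39 ± 0.27 at 7 d (adjusted p = 0.0044), and Mustn1 by -1.77 ± 0.38 at 3 d (adjusted p = 0.0060). Pdlim3, a muscle LIM protein, was 2.70 ± 0.49 higher at 7 d than at 3 d (adjusted p = 0.0048). The called smooth muscle genes thus lay in both directions at 3 d and 7 d.

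Upstream genes were sorted into 2 lists. Beside the counts of both, 6.74% of all genes were called higher and 5.82% lower at 3 d, and 4.62% and 3.49% at 7 d. Of 14 measured genes of the SRF and myocardin axis 4 rose and 2 fell at 3 d, and 3 rose and none fell at 7 d. Csrp2, a LIM protein that binds SRF in smooth muscle, measured 11.39, 12.32 and 12.73 in uninjured cells and 14.67 to 14.91 at 3 d and 14.73 to 15.20 at 7 d, and rose by 2.67 ± 0.28 and 2.89 ± 0.28 (limma adjusted p = 3.1e-05 and 2.3e-05), then differed by -1.72 ± 0.28 at 4 wk from 7 d cells (adjusted p = 0.0031). Fhl2, a LIM cofactor, rose by 2.22 ± 0.57 at 3 d (adjusted p = 0.0189, lost without uninjured replicate 1 or 3 d replicate 2 or 3, up to 0.0862) and by 2.37 ± 0.57 at 7 d (adjusted p = 0.0184, lost without uninjured replicate 1 or 7 d replicate 2, up to 0.0919). Prrx1, a homeobox factor of mesenchymal cells, rose by 1.66 ± 0.34 at 3 d (adjusted p = 0.0048). Tead1, a TEAD factor, rose by 1.46 ± 0.30 at 3 d (adjusted p = 0.0046), and both of these calls held without any single array. Tead1 also rose by 1.12 ± 0.30 at 7 d (adjusted p = 0.0336, lost without uninjured replicate 1 or 3 or 7 d replicate 2 or 3, up to 0.148) and differed by -1.41 ± 0.30 at 4 wk from 7 d cells (adjusted p = 0.0152, lost without 7 d replicate 2 or 3 or 4 wk replicate 3, up to 0.0766). At 3 d Fhl1 differed by -1.48 ± 0.32 (adjusted p = 0.0071) and Klf4, known as a repressor of smooth muscle genes, by -1.68 ± 0.44 (adjusted p = 0.0205, lost without uninjured replicate 1 or 3 or 3 d replicate 2, up to 0.0661). Srf, Mrtfa and Mrtfb were called in none of the 8 comparisons. Myocd, the gene of myocardin, lay between 3.50 and 4.15 on all 14 arrays, below background. Of 13 measured genes of the TGF-beta input, the pathway best known for inducing Acta2 in fibroblasts, none rose and 2 fell at 3 d, and 2 rose and 1 fell at 7 d. Tgfb3 measured 15.20 to 15.93 at 3 d, 17.26 to 17.57 at 7 d, 17.36 and 17.38 at 2 wk and 16.78 to 17.04 at 4 wk, against 14.88 to 15.09 in uninjured cells, and was 2.45 ± 0.21 higher at 7 d than in uninjured cells (adjusted p = 8.4e-06) and 1.99 ± 0.21 higher than at 3 d (adjusted p = 1.8e-04). Tgfb1 rose by 1.55 ± 0.39 at 7 d (adjusted p = 0.0260, lost without uninjured replicate 1 or 2 or 7 d replicate 2 or 3, up to 0.119), and Tgfb2 differed by -1.42 ± 0.34 between 7 d and 3 d cells (adjusted p = 0.0214, lost without 3 d replicate 1 or 7 d replicate 2, up to 0.0986). Ltbp1, which binds latent TGF-beta in the matrix, differed from uninjured cells by -1.24 ± 0.34 at 3 d, -1.33 ± 0.34 at 7 d and -1.61 ± 0.34 at 4 wk (adjusted p = 0.0266, 0.0253 and 0.0239). Each of these calls was lost without uninjured replicate 1 or 3, and also without 3 d replicate 2, 7 d replicate 1 or 3, or 4 wk replicate 1 or 2 for its own time (adjusted p up to 0.129, 0.0856 and 0.0979). Ski, a repressor of SMAD signaling, differed by -0.82 ± 0.21 at 3 d (adjusted p = 0.0186, lost without uninjured replicate 1 or 3 d replicate 2, up to 0.0962).

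The members are also genes of vascular smooth muscle cells and pericytes, the mural cells that wrap vessels. Of 21 measured mural markers 2 rose and 3 fell at 3 d, and 6 rose and 2 fell at 7 d. Over all genes 6.74% were called higher and 5.82% lower at 3 d, and 4.62% and 3.49% at 7 d. The summed signal of the list on the log2 scale ranged from 12.62 to 12.78 at 3 d and 13.47 to 14.05 at 7 d. It ranged from 12.91 to 13.38 at 2 wk and 13.002 to 13.14 at 4 wk, against 13.32 to 13.45 in uninjured cells. The sum was thus lower at 3 d than in uninjured cells. The mean log2 signal of the same list overlapped, at 7.34, 7.33 and 7.07 at 3 d against 6.78, 7.48 and 7.36 in uninjured cells. Rgs5, the most used pericyte marker, measured 9.11, 7.999 and 7.62 at 3 d against 8.89, 10.56 and 11.04 in uninjured cells. Vtn (vitronectin) differed by -2.29 ± 0.34 at 3 d and -1.99 ± 0.34 at 7 d (limma adjusted p = 4.6e-04 and 0.0020), and Heyl, a target of Notch3 signaling, by -1.84 ± 0.33 at 3 d (adjusted p = 0.0019). Myocd, Pln and Ndufa4l2 were below background in every group mean.

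Other mural markers moved with the members at 7 d. Mcam (CD146) rose by 3.58 ± 0.52 (limma adjusted p = 5.5e-04), Cspg4 (NG2) by 3.19 ± 0.39 (adjusted p = 1.4e-04) and Rgs4 by 2.85 ± 0.40 (adjusted p = 4.2e-04) over uninjured cells, and Cspg4 and Rgs4 were also 2.42 ± 0.39 and 2.21 ± 0.40 above 3 d cells (adjusted p = 0.0024 and 0.0049), as Mylk was. Map3k7cl rose by 3.14 ± 0.34 at 3 d and 3.42 ± 0.34 at 7 d (adjusted p = 3.6e-05 and 2.5e-05) and differed by -3.12 ± 0.34 at 4 wk from 7 d cells (adjusted p = 1.5e-04). Aoc3, a vascular amine oxidase, rose by 2.50 ± 0.49 at 3 d (adjusted p = 0.0034) and differed by -2.96 ± 0.49 at 4 wk from 7 d cells (adjusted p = 0.0032). Mcam differed by 2.30 ± 0.52 between 7 d and 3 d cells (adjusted p = 0.0158, lost without 3 d replicate 3 or 7 d replicate 2, up to 0.0687), and Abcc9 by -1.76 ± 0.44 between 7 d and uninjured cells (adjusted p = 0.0246, lost without uninjured replicate 1 or 3 or 7 d replicate 1 or 3, up to 0.104). Steap4 differed by -2.71 ± 0.51 between 7 d and 3 d cells (adjusted p = 0.0057). The part of mural cells in the members' changes was not tested.

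**Figure D4:**
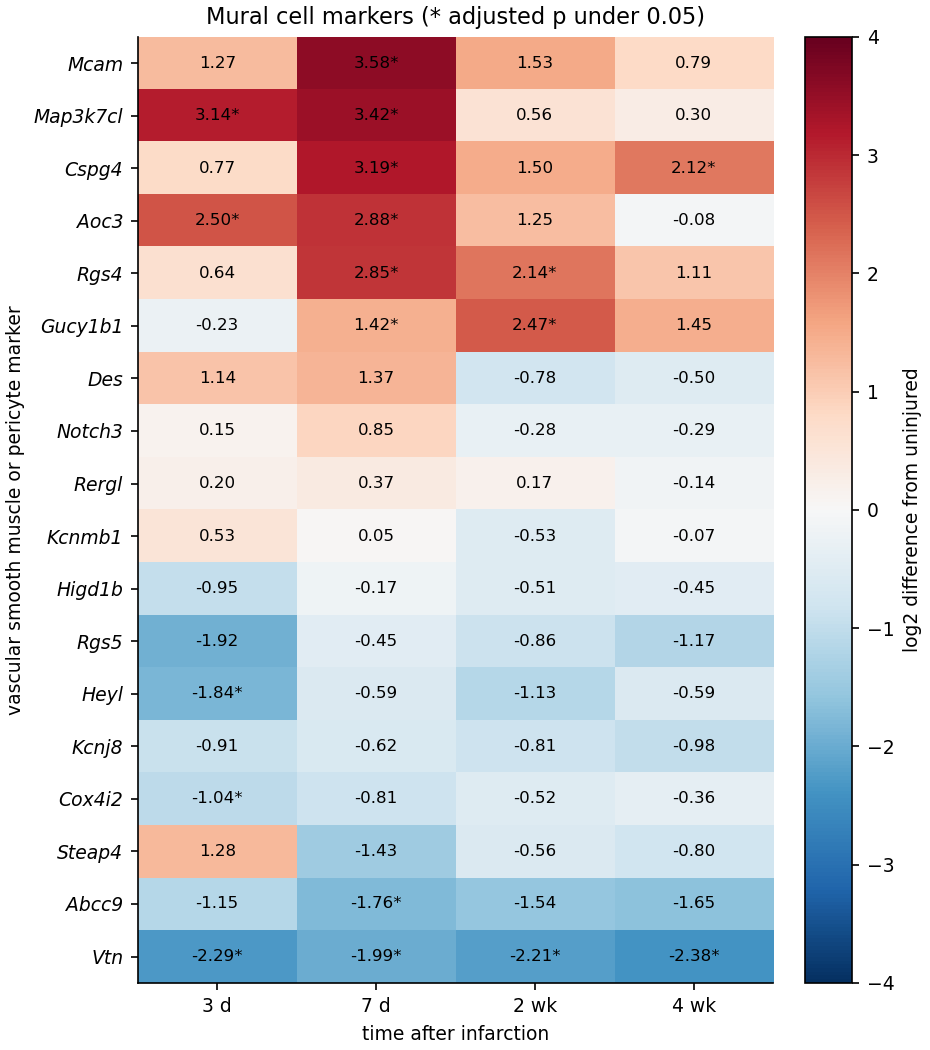
Log2 difference from uninjured cells at 4 times after infarction for the 18 vascular smooth muscle and pericyte markers above background in at least 1 group, ordered by the 7 d value (color and printed number, with a star where the adjusted p was under 0.05). Mcam, Map3k7cl and Cspg4 are highest at 7 d, and Vtn is low at all 4 times.

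Markers of other cell types moved in the same comparisons, where 6.74% of all genes were called higher and 5.82% lower at 3 d, and 4.62% and 3.49% at 7 d. Macrophage and myeloid markers were called higher for 2 of 14 at 3 d and 12 of 14 at 7 d, with a summed signal of 13.35 to 15.70 at 7 d and 10.05 to 11.75 at 3 d against 9.47 to 9.92 in uninjured cells. The 7 d array with the highest macrophage signal, replicate 1 (one of the arrays numbered 1), had the lowest signal of Acta2, Tagln, Tpm1, Tpm2, Cnn1, Mylk and Myl9 among the 7 d arrays. The other 7 d arrays did not follow that order. Replicate 3 had a higher macrophage sum than replicate 2 (15.01 against 13.35) and higher Tagln (16.12 against 15.87) and Cnn1 (10.13 against 8.45). Tpm1, Tpm2, Mylk and Myl9 were higher in replicate 3 as well, and Acta2 was 15.51 against 15.54. Cardiomyocyte markers fell at 3 d for 4 of 16, Myl3 by 4.19 ± 0.83 and Myl2 by 3.54 ± 0.79 among them (limma adjusted p = 0.0037 and 0.0082). Of 11 endothelial markers 2 fell at 3 d, Tek by 2.86 ± 0.56 (adjusted p = 0.0032), and their summed signal was 15.65 on 2 wk replicate 1 and 11.73 on 2 wk replicate 2. Of 8 measured epicardial and mesothelial markers none was called in any of these comparisons and 6 were below background in every group, Wt1 included. The part of these cells in the members' changes was not tested.

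By the Pearson correlation over the 14 arrays, which share groups and array sets, the genes outside the list most like Acta2 were Txndc5 (0.967), Ripk3 (0.956), Csrp2 (0.949), Tbc1d1 (0.942) and Uck2 (0.941), of which Csrp2 was on the list of the SRF axis. Uck2, a pyrimidine salvage kinase, had group means of 7.61 in uninjured cells, 11.77 at 3 d, 11.45 at 7 d, 10.02 at 2 wk and 9.19 at 4 wk. The genes most like Myh11, itself near background, were Eva1b (0.887), Gpbar1 (0.846), Hid1 (0.837), Rab33b (0.831) and Bloc1s6 (0.828).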

How the data were processed

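The values were the deposited gene-level log2 signals of the series table, which the authors made with Affymetrix Expression Console according to the labels. The summarization and genome build are not given in the sources used here. Of 28846 rows 6704 were controls, 2570 of 22142 transcript clusters had no gene symbol, and 55 genes with more than 1 row were represented by their brightest one, leaving 19505 genes. No further normalization was applied. Differences were fitted with limma 3.58.1 (R 4.3.3) over all 14 arrays with 1 mean per group and no block, and p-values were adjusted by Benjamini-Hochberg over all genes, with 0.05 as threshold. The fit had 9 residual and 4.53 prior degrees of freedom. It was tested on simulated data in which arrays were independent of each other, unlike the same-numbered arrays here. The number of arrays limits the precision. Named were all members, their paralogues, the first markers and up to 3 called genes a direction of each list, and the 5 genes most like Acta2 and Myh11. The members and lists were chosen with earlier results of these data known. Promoter windows and sequences are from RefSeq (GRCm38.p6). Alternatives were the replicate block, 2 normalizations, pairwise fits, a background filter, an intensity trend, a Y-linked block, the methods' analysis of variance with Tukey's test, leaving out arrays and, added after seeing the data, the array set block. The result of 1 further gene list is not reported here.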

Additional observations from a re-analysis of the deposited data

Results flagged for a closer look

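The following differences between later and earlier groups of infarct cells stand out because 2 effects measured against the same uninjured arrays differed by a test of the difference itself (limma, adjusted p under 0.05). Mylk was 1.85 higher at 7 days than at 3 days on the log2 scale. Acta2 and Tpm2 differed by -2.74 and -2.83 between 2 wk and 7 d cells. Between 4 wk and 7 d cells Acta2 differed by -2.64, Tpm2 by -2.76, Mylk by -1.85, Tagln by -1.83 and Myl9 by -1.12. The number of arrays per group, 2 or 3, was too small for a test of single outlying arrays.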

How the results depend on the processing

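None of 113 differences computed with all alternatives changed sign. Those printed for named genes were among them, except the differences of 2 wk and 4 wk cells from 3 d cells. Differences near 0 that were given only as levels were not among them either. The pairwise fits, the background filter, the intensity trend and the Tukey tests leave each difference as it was, so no sign could change under them. Many of the 113 had been called in the main fit, where a change of sign was unlikely from the start. For the members the counts of called genes at 3 days (4 of 10 against uninjured cells), at 2 weeks against uninjured cells and at 4 weeks against 2 weeks did not change when single arrays were left out. Leaving out single arrays gave 3 to 6 calls at 7 days against uninjured cells, 0 to 2 at 4 weeks against uninjured cells, 0 to 2 at 7 days against 3 days, 0 to 5 at 2 weeks against 7 days, 1 to 6 at 4 weeks against 7 days and 4 to 7 over the 5 groups. The number of all genes called moved as well, from 1068 to 1713 at 7 days against uninjured cells when single arrays were left out. With the array set as a block, chosen after seeing the data, counts became 6 at 3 d, 7 at 7 d, 1 at 2 wk and 2 at 4 wk against uninjured cells. Of all genes 19.7%, 13.1%, 4.96% and 3.71% were called there. Under this block 2 were called at 7 days against 3 days (13% of all genes). Against 7 days 7 were called at 2 weeks and 6 at 4 weeks (5.37% and 8.34% of all genes). Without the arrays numbered 1 they became 4 at 7 days against 3 days and 7 at 2 weeks against 7 days. Array median centring gave 0 at 4 weeks against uninjured cells and 1 at 2 weeks against 7 days, quantile normalization 1 and 3 at 2 and 4 weeks against 7 days, and a fit of only the groups compared 0 at 4 weeks against uninjured cells. A Y-linked block gave 0 at 4 weeks against uninjured cells and 0 at 2 weeks against 7 days (257 and 170 of all genes). The methods' Tukey test gave 5 at 2 weeks against 7 days unadjusted (874 of all genes). After Benjamini-Hochberg it gave 3 at 7 days and 0 at 4 weeks against uninjured cells (435 and 52 of all genes). It gave 0 at 7 days against 3 days (142 of all genes) and 4 over the 5 groups. Against 7 days it gave 0 at 2 weeks and 0 at 4 weeks (1 and 119 of all genes). The cause of these changes was not tested. With the replicate number as a block, 5, 7, 0 and 1 members were called at 3 d, 7 d, 2 wk and 4 wk against uninjured cells. Of all genes 19.1%, 12.6%, 4.26% and 3.46% were called there. Under this block 2 members were called at 7 days against 3 days (12.3% of all genes). Against 7 days 5 were called at 2 weeks and 6 at 4 weeks (4.32% and 7.98% of all genes). Of 26 same-numbered pairs of arrays 25 had deviations correlated above 0.1, and 9 of 14 arrays correlated best with their own number. The numbers were not taken as pairs in the other counts because the labels tie no animal or batch to a number and the lowest pair, at 0.0604, missed the 0.1 asked of every pair. These correlations ranged from 0.316 to 0.637 among the arrays numbered 1, 0.0604 to 0.361 for number 2 and 0.131 to 0.539 for number 3. Between different numbers they ranged from -0.586 to 0.461. The counts without a block leave this shared structure out. Groups of 2 or 3 arrays and levels near background limit Myh11, Cnn1 and Actg2 most.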
